A study of Rattus norvegicus with 12 samples.

Results

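Halothane at 3 MAC was compared with halothane at 1 MAC in cultures of primary cortical neurons from fetal rats. The comparison took the 3 arrays labelled with each dose, 6 of the 12 arrays of the series, and asked which transcripts differed between a low and a high dose of the same gas. The neurons came from the litters of 3 rats at pregnancy day 17, with 4 plates of 100 mm for each rat. At day 16 in vitro the treated plates spent 6 h in a sealed chamber with halothane at 1 MAC (about 1%), halothane at 3 MAC (about 3%) or isoflurane at 3 MAC (about 4%), and they were harvested after 6 h of recovery. Both halothane groups were in the chamber, whereas the 3 air control plates stood outside it in the same incubator. Strain, sex and genotype are not given in the labels. The labels do not settle whether a rat contributed plates to every group or supplied all treated plates of a single treatment. On the latter reading the rat and the halothane dose cannot be told apart. The p-values below measure the spread between these plates, which may be technical.

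MAC, the minimum alveolar concentration, expresses the potency of an inhaled anaesthetic through the alveolar concentration that prevents movement after a painful stimulus. Halothane is a volatile halogenated alkane that acts on many membrane proteins, among them GABA-A and glycine receptors and background potassium channels. Cells of the brain make their own cholesterol. When sterols run low in the endoplasmic reticulum, the escort protein Scap is released from the Insig proteins and carries the SREBP transcription factors to the Golgi apparatus, where they are cut and freed to switch on the enzymes of sterol synthesis. Cultures of fetal cortex hold astrocytes and dividing progenitors beside neurons.

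Each value is a log2 ratio of a sample to a pool of control RNA, so it gives a distance from the pool and not the level of a transcript, and different genes cannot be ranked by level. That the ratio runs as sample over pool, and that the deposited logarithm has base 10, is likely and not stated. With the ratio turned, each direction given here would be turned as well. The neuronal label could not be checked as presence or absence for the same reason. The median ratio of 13 pan-neuronal markers was −0.49, −0.15 and −0.10 on the 1 MAC arrays and between 0.01 and 0.12 on the 3 MAC arrays.

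Array halothane 1 MAC replicate 1 stood apart from the others. Its median over features was 0.24 against −0.01 to 0.01 on the other 11 arrays, and its SD was 0.82 against 0.32 to 0.48. Across 15919 features it correlated with no other array above r = 0.151, while 1 MAC replicates 2 and 3 correlated with each other at 0.738 and the 3 MAC arrays at 0.736 to 0.828. Of 471 spots that stood at the limit of the scale, 0 did so on this array and 467 to 471 on each other array, and it held 330 exact zeros against 953 to 2124 elsewhere. Whether its column was processed differently was not tested, so its single values are shown for completeness. Fits over 12 arrays include it, and fits over 11 arrays and over 5 halothane arrays leave it out. A control array also lay near a treated group: control 2 correlated with the 3 MAC arrays at 0.712 to 0.753, but with control 1 at 0.124 and with control 3 at 0.016. Whether this column or plate was exchanged with another was not tested. Its label was kept, and each position beside the controls depends on it. Halothane 1 MAC replicates 2 and 3 correlated best, among the controls, with control 1, at 0.611 and 0.598, and the isoflurane arrays correlated with control 3 at 0.468 to 0.609. Each treated group, with 1 MAC replicate 1 set aside, thus correlated best with a different control. If a rat supplied all treated plates of a single treatment, rat and dose cannot be told apart in these values, which was not tested. All these arrays share the pool, and the points are features of the same arrays, so no p is given.

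With all 12 arrays, 0 of 16546 features passed an adjusted p of 0.05 between the doses (0%), by limma's two-sided moderated test with Benjamini-Hochberg adjustment. An unadjusted p under 0.05 was found for 3067 features, where chance alone would give 827, and the smallest adjusted p was 0.0607, shared by 160 features. Without 1 MAC replicate 1, 69 features passed (0.417%), of which 35 were higher at 3 MAC (0.212%) and 34 lower (0.205%). Among them were 34 named genes, 11 higher and 23 lower. All 69 calls were lost, with 0 higher and 0 lower, with the replicate block, without moderated variances, without isoflurane replicate 3, or without any 1 of the 5 halothane arrays, and 0 higher and 1 lower were left without isoflurane replicate 1. This holds for each adjusted p from that fit given below. All 69 had the same sign with 12 arrays, where their adjusted p ranged from 0.0607 to 1, and in 48 of them the 3 MAC values did not overlap the 1 MAC values even with replicate 1 included.

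A fit over the 5 halothane arrays alone, with 1 MAC replicate 1 left out, is called the halothane-only fit below. It called 2421 features (14.6%), 1030 higher at 3 MAC (6.23%) and 1391 lower (8.41%), all 69 features among them. The median SD of a feature was 0.12 among the 3 MAC plates and 0.08 between 1 MAC replicates 2 and 3, or 0.36 with replicate 1. It was 0.19 among the controls, which enter the spread of the fits over 12 and 11 arrays but not of the halothane-only fit. The 0.08 rests on 2 values of a feature and the others on up to 3, so it is not directly comparable with them. With all 6 halothane arrays the 2 doses did not overlap, with 3 MAC higher, in 1982 of 16280 features (12.2%), and with 3 MAC lower in 2500 (15.4%). Without replicate 1 these shares were 23.7% and 24.1% of 16301 features. Counts of list members called below are from the halothane-only fit unless another is named. The planned fits were those over 12 and 11 arrays. The halothane-only fit is an alternative with 3 residual degrees of freedom, and it calls more features than either. It was not repeated with single arrays left out. With 12 arrays no list member passed, and with 11 only Aldh1l1, Slc1a5, Ddit4, Ret, Per2 and Creld2 did. The counts are read against these shares, and differences are 3 MAC minus 1 MAC on the log2 scale.

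Of the genes with values on all 6 halothane arrays and no overlap between doses, the 8 of smallest p in each direction shared an adjusted p of 0.0607 with 12 arrays, so none passed that fit. Higher at 3 MAC stood Ddit4, Kctd8, Insig1, Nsdhl, Depdc1, Idi1, Aacs and Hsd17b7. Ddit4 encodes REDD1, an inhibitor of mTORC1 signalling that is induced by stress. Its log2 ratios were 0.22, 0.05 and 0.17 at 3 MAC and −0.81, −0.92 and −0.97 at 1 MAC, with −0.52, −0.13 and −0.56 in the controls and −0.15, 0.42 and −0.08 under isoflurane. The 3 MAC values lay above all controls and the 1 MAC values below all of them. The difference was 1.05 (SE 0.18, n = 3 against 3) with 12 arrays and 1.09 (SE 0.18) without 1 MAC replicate 1, a 2.13-fold difference with a limma adjusted p of 0.0444.

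Kctd8, an auxiliary subunit of GABA-B receptors, stood at 1.07, 1.13 and 1.32 at 3 MAC and at −0.72, −0.59 and −0.56 at 1 MAC, with controls at −0.26, 0.75 and −0.91. Depdc1, a gene of mitosis, stood at 1.71, 1.52 and 1.64 at 3 MAC and at −0.82, −0.32 and −0.01 at 1 MAC, with controls at −0.56, 0.90 and −0.46. In both genes control 2 lay apart from the other controls, on the side of the 3 MAC arrays. Aacs, which feeds ketone bodies into lipid synthesis, stood at 0.60, 0.39 and 0.60 against −0.35, −0.58 and −0.67, a difference of 1.07 (SE 0.21, 1.16 without replicate 1).

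Lower at 3 MAC stood Mertk, Ctsh, Pdlim4, Hars2, Gpnmb, Hopx, Abcc4 and Ceacam4. Mertk, a receptor tyrosine kinase by which cells clear debris, gave −1.10, −1.21 and −1.27 at 3 MAC, 0.05, 0.59 and 0.71 at 1 MAC, −0.14, −0.50 and 0.13 in the controls and 0.65, 0.05 and 0.29 under isoflurane. All 3 MAC values lay below every other array. Its difference was −1.64 (SE 0.22) with 12 arrays and −1.84 (SE 0.20, adjusted p = 0.0444 by limma) without replicate 1. Ctsh, which encodes the lysosomal protease cathepsin H, gave −0.75, −0.89 and −1.10 at 3 MAC against 0.82, 0.30 and 0.23 at 1 MAC, with controls at 0.10, −0.60 and −0.03.

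Gpnmb, a transmembrane glycoprotein of lysosome-rich cells, had the largest difference of these 16 genes, −2.58 (SE 0.41, −2.55 without replicate 1). Its values were −1.57, −1.66 and −1.46 at 3 MAC and 1.08, 0.85 and 1.11 at 1 MAC, and control 2 at −1.38 stood with 3 MAC while controls 1 and 3 stood at 0.65 and 0.46. Hopx, a small homeodomain protein, gave −1.27, −0.87 and −1.05 against 0.74, 0.94 and 0.36, beyond every control on both sides. Abcc4, an efflux transporter of organic anions, gave −0.54, −0.73 and −0.38 against 0.29, 0.44 and 0.58. Hars2, the mitochondrial histidyl-tRNA synthetase, differed by −1.39 (SE 0.22, −1.39 without replicate 1), but its probes disagreed in size, at −0.59 and −2.18. It gave −1.010, −1.086 and −1.161 at 3 MAC and 0.293, 0.320 and 0.285 at 1 MAC. The controls stood at −0.003, −0.985 and −0.892 and the isoflurane arrays at −0.993, −1.043 and −0.960. The 1 MAC arrays and control 1 were thus the ones apart from the rest.

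**Figure D1:**
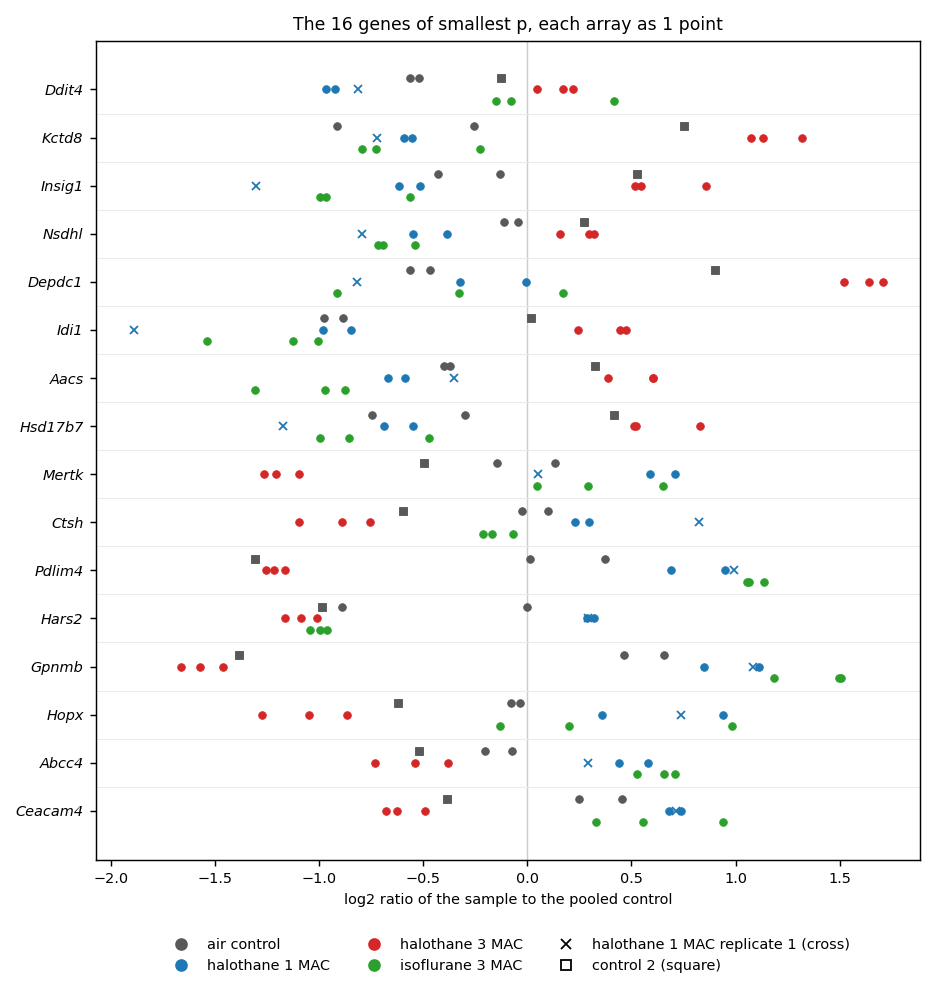
Log2 ratio to the pooled control (horizontal axis) of the 16 genes of smallest p with no overlap between doses, 1 point for each of the 12 arrays, coloured by group, with 1 MAC replicate 1 as a cross and control 2 as a square. The 3 MAC points and the 1 MAC points do not overlap in any row, and in each of the 8 genes higher at 3 MAC control 2 is the control nearest the 3 MAC points.

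Without 1 MAC replicate 1, the largest differences past the threshold with no overlap were higher at 3 MAC for Apoa1, Lims2, Dnajc5, Ddit4, Slc9a5, Mpp7, Chfr and Aldh1l1. The probes of Mpp7 disagreed in size, at 0.23 and 1.73 without replicate 1. Apoa1, the main protein of high-density lipoprotein, gave 0.65, 0.68 and 0.71 at 3 MAC and −0.86 and −0.94 at 1 MAC, a difference of 1.58 (SE 0.25, limma adjusted p = 0.0444). Replicate 1 stood at 0.91, above all of them, and with it the difference was 0.98 with an adjusted p of 0.246. Lims2, a focal adhesion protein, gave 0.30, 0.27 and 0.20 at 3 MAC, a difference of 1.31 (SE 0.22, 0.63 with 12 arrays), with replicate 1 at 0.98. Dnajc5 encodes cysteine string protein, a chaperone of synaptic vesicles. Its 3 MAC values were 0.75, 0.63 and 0.55, those of 1 MAC −0.84 and −0.14, and replicate 1 stood at 1.23. Slc9a5, a sodium-proton exchanger of neurons, likewise had replicate 1 at 0.85 beside −0.19 and −0.60. In these 4 genes replicate 1 stood above all 3 MAC values, while the other 1 MAC plates stood below them.

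Lower at 3 MAC in that fit were Slc1a5, Mertk, Dram1, Ret, Hars2, Per2, Ngb and Man1a1. Slc1a5, a transporter of glutamine and other neutral amino acids, fell by 2.29 (SE 0.40, limma adjusted p = 0.0475), a 4.89-fold difference. With 12 arrays the difference was −2.13. Its values were −1.20, −1.40 and −1.31 at 3 MAC and 0.50, 0.93 and 1.05 at 1 MAC, with replicate 1 on the same side as the others. The controls stood at 0.25, −1.14 and 0.71. Dram1, a lysosomal protein of autophagy, gave −0.44, −0.88 and −0.46 against 0.14, 0.74 and 0.99, with controls at 0.30, −0.04 and 0.44. Ngb, neuroglobin, the oxygen-binding globin of neurons, gave −0.86, −0.92 and −0.83 against 1.37, 0.50 and 0.43. Man1a1 trims mannose from N-glycans in the Golgi apparatus and gave −0.05, −0.00 and −0.16 against 0.32, 1.24 and 1.15.

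In Ret and Per2 replicate 1 stood far from the other 1 MAC plates. Ret, the signalling receptor for GDNF-family ligands, gave −0.38, −0.57 and −0.66 at 3 MAC and 0.90 and 0.91 at 1 MAC, with replicate 1 at −0.36, just above the highest 3 MAC value. Per2, a repressor of the circadian clock, gave −0.59, −0.67 and −0.22 against 0.77 and 0.93, with replicate 1 at −1.90, below all of them. With 12 arrays the adjusted p was 0.138 for Ret and 0.679 for Per2.

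Sterol synthesis had the largest share of members called higher at 3 MAC in the halothane-only fit among the 41 lists examined, 16 of 22 measured genes, with 0 called lower, against 6.23% and 8.41% of all features. The median difference over the 22 was 0.84 with 12 arrays and 0.89 without 1 MAC replicate 1, against −0.08 and 0.01 over all features. With all 6 halothane arrays the doses did not overlap in 17 of the 22, 16 with 3 MAC higher. The adjusted p reached 0.0607 with 12 arrays and 0.0525 with 11, so no member passed those fits.

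Along the pathway, Acat2, which joins acetyl-CoA units, gave 0.56, 0.52 and 0.85 at 3 MAC and −1.03, −0.90 and −0.91 at 1 MAC, a difference of 1.59 (SE 0.36, 1.55 without replicate 1). Of the mevalonate kinases, Mvk gave 0.25, 0.25 and 0.21 against 0.14, −0.72 and −0.63, so replicate 1 narrowed its gap. Mvd, which makes isopentenyl pyrophosphate, gave 0.06, 0.26 and 0.24 against −1.64, −1.36 and −1.07. Idi1 isomerises that product. Its values were 0.24, 0.48 and 0.44 at 3 MAC, −1.89, −0.98 and −0.85 at 1 MAC, −0.98, 0.02 and −0.89 in the controls and −1.12, −1.54 and −1.01 under isoflurane. The Idi1 difference was 1.63 (SE 0.31) with 12 arrays and 1.30 (SE 0.27) without replicate 1, a 2.47-fold difference, and all 3 MAC values lay above every other array.

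Further down, Fdps, the farnesyl pyrophosphate synthase, differed by 1.01 (SE 0.26, 0.87 without replicate 1), Sqle, the squalene epoxidase, by 1.13 (SE 0.31, 0.78 without replicate 1) and Lss, the lanosterol synthase, by 0.78 (SE 0.21, 0.78 without replicate 1). Cyp51, the lanosterol demethylase, gave 0.53, 0.49 and 0.57 at 3 MAC and −0.73, −0.70 and −0.64 at 1 MAC, and its 3 probes differed by 1.40, 1.04 and 1.22. Nsdhl and Hsd17b7 act in the removal of the sterol's methyl groups. Nsdhl gave 0.16, 0.30 and 0.32 against −0.79, −0.55 and −0.38, and Hsd17b7 gave 0.51, 0.52 and 0.83 against −1.17, −0.55 and −0.69. Sc5d, the lathosterol desaturase, differed by 1.02 (SE 0.22, 1.01 without replicate 1). Not every enzyme had a clear gap: Fdft1, the squalene synthase, differed by 0.29 (SE 0.19, 0.29 without replicate 1), Pmvk by 0.61 (SE 0.24, 0.36 without replicate 1) and Dhcr7, which makes the last step to cholesterol, by 0.35 (SE 0.42, 0.60 without replicate 1).

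Of the sensors, Insig1, itself an SREBP target, gave 0.55, 0.52 and 0.86 at 3 MAC, −1.30, −0.52 and −0.62 at 1 MAC, −0.43, 0.52 and −0.13 in the controls and −0.56, −0.99 and −0.97 under isoflurane. Its difference was 1.45 (SE 0.27) with 12 arrays and 1.20 (SE 0.25) with 11. Scap differed by −0.29 (SE 0.13, −0.25 without replicate 1) and Srebf2, the transcription factor of the pathway, by −0.23 (SE 0.26, 0.14 without replicate 1), with no call in any of the 3 fits and with the sign of Srebf2 turned by replicate 1. Insig2 differed by 0.54 with 12 arrays and by 0.01 without replicate 1, which alone stood at −1.20. Stard4, a sterol carrier, gave 0.50, 0.37 and 0.50 against −0.97, −0.86 and −0.79.

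The controls divided on these genes. The list's median ratio was 0.29 on control 2, but −0.46 and −0.30 on controls 1 and 3, beside 0.35 to 0.41 at 3 MAC, −0.76 to −0.60 at 1 MAC and −1.08 to −0.57 under isoflurane. Both 1 MAC replicates 2 and 3 lay below all controls in 12 of the 22 genes, against 11.9% of features, and the 3 MAC arrays lay above all controls in 5 of the 22, against 9.14%. The position beside the controls was looked at after the values were seen.

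**Figure D2:**
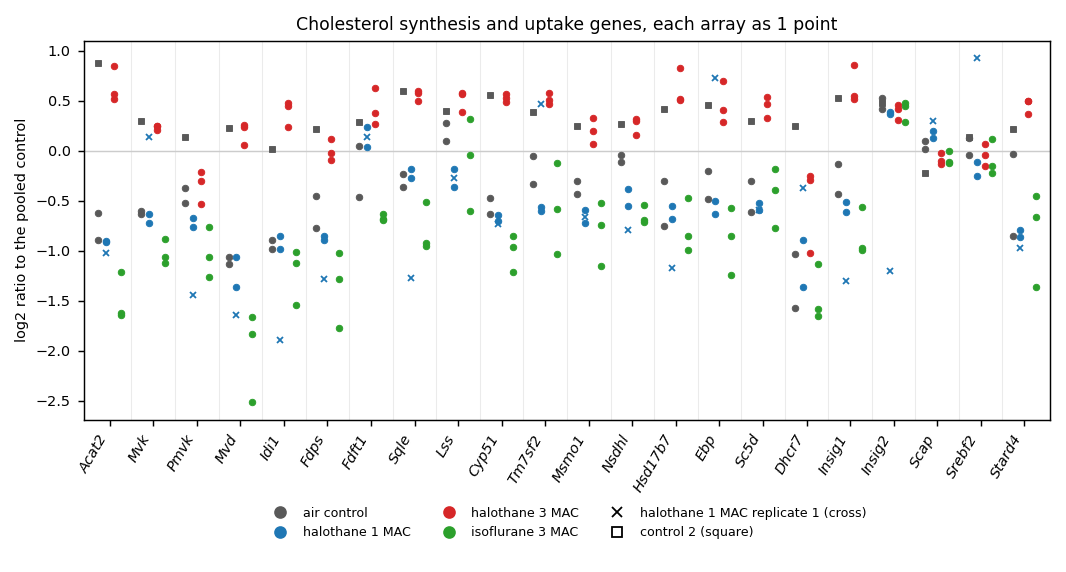
Log2 ratio to the pooled control (vertical axis) of the 22 measured genes of cholesterol synthesis and uptake, in pathway order from Acat2, with 1 point for each array, 1 MAC replicate 1 as a cross and control 2 as a square. The 3 MAC points lie above the points of 1 MAC replicates 2 and 3 in most genes, and control 2 lies with them.

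The promoters of the 4 sterol genes named first are shown because they hold a shared short motif. The CCAAT box, bound by the factor NF-Y that works beside SREBP, was searched as CCAAT on both strands from 250 bases before to 50 after the start of each gene. It was in 14 of 18 promoters of the list (77.8%) and in 37.7% of all 27457 promoters of the table. The letters TCACCCCAC of a sterol element were found in 0 of the 18 promoters, against 0.495% of all, and a match of one can share an end base with a match of the other. These are descriptions of letters, from the RefSeq promoters of build GRCr8, and not sites. The 250 bases before the start are printed 5′ to 3′ on the gene's strand, with CCAAT or its reverse complement in capitals. Insig1 lies on the minus strand at chr4:8057770-8058019, Idi1 on the minus strand at chr17:66547525-66547774, Nsdhl on the plus strand at chrX:155817110-155817359 and Hsd17b7 on the minus strand at chr13:84722755-84723004.
Insig1: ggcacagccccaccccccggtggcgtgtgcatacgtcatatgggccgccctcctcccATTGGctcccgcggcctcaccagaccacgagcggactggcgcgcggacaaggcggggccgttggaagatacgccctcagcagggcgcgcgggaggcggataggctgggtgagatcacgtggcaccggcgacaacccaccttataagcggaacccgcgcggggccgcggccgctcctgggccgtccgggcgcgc
Idi1: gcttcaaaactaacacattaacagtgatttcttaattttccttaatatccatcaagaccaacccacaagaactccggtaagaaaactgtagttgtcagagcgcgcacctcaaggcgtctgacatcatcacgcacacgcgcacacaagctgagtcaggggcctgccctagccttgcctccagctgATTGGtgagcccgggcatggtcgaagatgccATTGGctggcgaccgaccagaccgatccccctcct
Nsdhl: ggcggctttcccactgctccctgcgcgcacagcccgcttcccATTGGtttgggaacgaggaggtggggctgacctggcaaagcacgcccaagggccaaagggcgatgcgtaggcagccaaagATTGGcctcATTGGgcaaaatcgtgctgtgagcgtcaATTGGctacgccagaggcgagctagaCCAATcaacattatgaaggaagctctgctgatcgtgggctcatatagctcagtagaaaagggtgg
Hsd17b7: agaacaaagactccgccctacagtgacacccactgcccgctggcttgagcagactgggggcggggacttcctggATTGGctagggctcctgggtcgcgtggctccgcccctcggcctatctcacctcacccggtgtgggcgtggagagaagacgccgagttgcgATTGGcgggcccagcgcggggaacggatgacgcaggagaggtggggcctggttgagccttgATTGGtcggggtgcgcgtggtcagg

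Neighbouring lipid genes were mixed. Of 18 genes of fatty acid synthesis, the halothane-only fit called 3 higher and 1 lower, and the median difference was −0.02 with 12 arrays and 0.08 with 11. Acly, which makes cytosolic acetyl-CoA, gave 0.56, 0.35 and 0.60 at 3 MAC and −2.07, −0.78 and −0.76 at 1 MAC. Fasn, the fatty acid synthase, differed by 1.14 (SE 0.32, 1.15 without replicate 1) and Elovl6, an elongase, by 0.89 (SE 0.24, 0.78 without replicate 1), whereas Mid1ip1 differed by −0.59 (SE 0.14, −0.54 without replicate 1). Among 11 genes of cholesterol efflux and LXR targets, 1 was called higher and 2 lower. Over these genes the median difference was −0.17 with 12 arrays and 0.05 with 11. Apoe, the main lipid carrier of astrocytes, gave −1.48, −1.54 and −1.77 at 3 MAC and −0.47, 0.26 and 0.26 at 1 MAC, with control 2 at −1.50 and the other controls at 0.24 and −0.18. Nr1h3, the sterol receptor LXR alpha, spread from −1.42 to 0.01 at 3 MAC and from 0.48 to 0.99 at 1 MAC. Scarb1, a receptor for high-density lipoprotein, gave 0.19, 0.02 and 0.19 against −0.31, −0.47 and −0.50.

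Genes of the cell cycle and DNA replication were called higher at 3 MAC in 16 of 33 measured members by the halothane-only fit and lower in 0, beside backgrounds of 6.23% and 8.41%. The median difference was 0.43 with 12 arrays and 0.61 without replicate 1, and no member passed either of those fits. Mki67, which marks dividing cells, gave 1.34, 1.21 and 1.14 at 3 MAC, −3.69, −1.09 and −1.14 at 1 MAC, −1.64, 1.02 and −1.88 in the controls and −1.44, 0.23 and −1.50 under isoflurane. Control 2 stood with the 3 MAC arrays in this gene, far from the other controls, and the dose difference was 2.34 (SE 0.76, 3.20 with 12 arrays) without replicate 1. Ube2c, a ubiquitin-conjugating enzyme of mitotic exit, gave 1.15, 1.36 and 1.17 against −0.46, −0.39 and −0.67, and Plk1, a mitotic kinase, gave 0.76, 0.99 and 0.87 against −0.42, −0.30 and −0.41. Cenpk, of the centromere, gave 0.86, 1.00 and 0.90 against 0.27, 0.19 and −0.00. Ccne1, cyclin E1, gave 0.63, 0.46 and 0.69 against −0.46 and −0.63, with replicate 1 at 1.69.

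Replication genes were divided. Mcm5 and Mcm6 of the replicative helicase were called higher, with differences of 0.62 and 0.63 in the halothane-only fit, while Mcm7 differed by −0.15 and Mcm2 by −0.01 in it without a call, and Pcna, the replication clamp, by −0.23. Another Mcm6 probe, with values on 11 arrays and not used for the gene, differed by −0.06 without replicate 1. In 14 of the 33 genes the 3 MAC arrays lay above all controls, against 9.14% of features, and in 0 below. Progenitor markers were divided: of 13, 3 were called higher and 3 lower. Their median difference came to −0.01 with 12 arrays and 0.02 with 11. Eomes, of intermediate progenitors, gave 1.45, 1.38 and 1.36 at 3 MAC, −0.41, −0.64 and −0.67 at 1 MAC and −0.76, 1.21 and −2.19 in the controls. Nes, the intermediate filament nestin, gave −0.20, −0.52 and −0.32 against 0.25, 0.08 and 0.17. Numbers of dividing cells and RNA per cell cannot be told apart in such bulk samples, which holds for every marker list here.

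Cell cycle promoters shared the CCAAT letters with the sterol promoters, in 21 of 27 (77.8%). The letters TTTGAA of the CHR element, bound by the complex that represses mitotic genes in resting cells, were in 12 of the 27 promoters (44.4%), against 18.1% of all promoters and 11.6% of those of the tested genes, on both strands, where a match can share an end base with a CCAAT match. Prc1, a bundler of spindle microtubules, and Ccnb2, cyclin B2, are shown as promoters that hold both, with both in capitals. Prc1 lies on the plus strand at chr1:143659231-143659480 and Ccnb2 on the minus strand at chr8:79981659-79981908, in build GRCr8. Prc1 differed by 1.24 (SE 0.51, 1.03 with 12 arrays) and Ccnb2 by 1.13 (SE 0.53, 0.93 with 12 arrays) without replicate 1.
Prc1: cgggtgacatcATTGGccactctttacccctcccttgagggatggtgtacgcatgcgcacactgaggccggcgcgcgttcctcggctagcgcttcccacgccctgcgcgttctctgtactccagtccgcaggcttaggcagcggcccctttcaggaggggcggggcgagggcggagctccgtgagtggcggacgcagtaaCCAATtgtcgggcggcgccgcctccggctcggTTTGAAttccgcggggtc
Ccnb2: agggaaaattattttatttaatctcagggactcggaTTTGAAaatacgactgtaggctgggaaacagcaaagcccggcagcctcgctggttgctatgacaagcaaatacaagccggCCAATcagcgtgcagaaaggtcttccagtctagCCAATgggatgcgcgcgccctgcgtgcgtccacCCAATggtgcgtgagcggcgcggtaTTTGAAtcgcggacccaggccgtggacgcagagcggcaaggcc

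Astrocyte markers lay lower at 3 MAC. The halothane-only fit called 12 of 16 lower and 1 higher, with a median difference of −0.88 with 12 arrays and −0.90 with 11. With 12 arrays 0 members passed, and with 11 only 1 did, which was higher. Gfap, the intermediate filament of astrocytes, gave −2.21, −2.59 and −2.32 at 3 MAC, 0.41, 0.14 and 0.31 at 1 MAC, 0.38, −1.91 and 0.35 in the controls and 0.61, 0.52 and 0.57 under isoflurane. The Gfap difference was −2.66 (SE 0.47, adjusted p = 0.0607 by limma; −2.60 without replicate 1), and control 2 stood with the 3 MAC arrays. Sparc and Clu, both secreted by astrocytes, differed by −1.68 (SE 0.30, −1.50 without replicate 1) and −1.75 (SE 0.36, −1.77 without replicate 1), and Vim, vimentin, by −1.41 (SE 0.30, −1.59 without replicate 1). S100b, a calcium-binding protein, differed by −2.68 (SE 0.57, −2.16 with 12 arrays) without replicate 1, which stood at −0.73 beside 0.87 and 0.80.

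Aldh1l1, a folate enzyme used as an astrocyte marker, went the other way. It gave 0.50, 0.64 and 0.48 at 3 MAC and 0.10, −0.31 and −0.31 at 1 MAC, and it rose by 0.85 (SE 0.14, adjusted p = 0.0444 by limma; 0.72 with 12 arrays) without replicate 1. The probe's annotation is the platform's and was not checked further. The list's median ratio was −0.82 to −0.67 at 3 MAC and −0.73 on control 2, against 0.16 to 0.34 on controls 1 and 3, 0.07 to 0.17 at 1 MAC and −0.16 to 0.19 under isoflurane. No marker can be placed at 0 RNA, since ratios carry no level. These values moved with each list below that was lower at 3 MAC, and their part in those results was not tested.

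Markers of the other cell types had smaller median differences than the astrocyte markers. Their counts are read beside 6.23% of all features called higher and 8.41% lower. Microglia and vascular markers called lower, and oligodendrocyte and choroid plexus markers called higher, stood above these shares in small lists. The halothane-only fit called 2 of 12 microglia markers lower and 1 higher, 5 of 14 vascular and fibroblast markers lower and 1 higher, 0 of 10 oligodendrocyte markers lower and 3 higher, 0 of 9 choroid plexus and ependymal markers lower and 2 higher, and 0 of 3 red blood cell markers in either direction. The median difference of the microglia markers was −0.27 with 12 arrays and −0.11 with 11. For the vascular markers it was −0.20 and −0.09. For the oligodendrocyte markers it was 0.20 and 0.20. For the choroid plexus markers it was −0.17 and 0.12. For the red blood cell markers it was −0.15 and 0.05. Ttr, transthyretin, the main secreted protein of choroid plexus, gave 0.75, 1.67 and 1.24 at 3 MAC, −1.06, −1.37 and −2.18 at 1 MAC, −1.34, 1.28 and −2.95 in the controls and −3.39, −2.19 and −3.19 under isoflurane. Col1a2, a chain of type I collagen, gave 0.48, 0.64 and 0.90 against 0.52, −1.27 and −1.32, with controls at −1.08, 0.90 and −0.93. In both genes control 2 stood with the 3 MAC arrays. C1qb, a complement chain made by microglia, gave −1.38, −1.51 and −1.78 against 0.42, −0.16 and −0.24. Lyz2, a lysozyme of macrophages, went the other way, with 0.50, 0.54 and 0.50 against −0.18, −0.83 and −0.81. Pdgfra, of oligodendrocyte precursors, gave 0.53, 0.60 and 0.46 against −0.73, 0.03 and 0.19.

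Genes of amino acid supply under ATF4, the transcription factor of the integrated stress response, were called lower in 17 of 29 and higher in 1, Ddit4, with a median difference of −0.66 with 12 arrays and −0.51 with 11. Slc1a5 passed without replicate 1, as given above. Slc7a11, the cystine transporter, gave −1.75, −1.67 and −1.83 at 3 MAC and 0.31, 0.38 and 0.50 at 1 MAC, with controls at 0.28, −1.56 and 0.60. Chac1, which degrades glutathione, differed by −0.86 (SE 0.19, −0.71 without replicate 1), though its probes gave −0.52 and −1.20. Shmt2, of mitochondrial serine metabolism, differed by −0.71 (SE 0.16, −0.74 without replicate 1). Nupr1, a small stress-induced nuclear protein, gave −0.40, −0.29 and −0.24 against 0.60 and 0.58, with replicate 1 at −0.13. In 8 of the 29 genes the 3 MAC arrays lay below all controls, against 6.97% of features, and in 8 both 1 MAC replicates lay above all controls, against 12%.

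Antioxidant and detoxifying genes followed the same order. Of 30 genes under NRF2, the transcription factor that answers electrophilic stress, 14 were called lower and 2 higher, and of 31 genes of drug metabolism, which share glutathione transferases with that list, 14 were called lower and 0 higher. Their median differences were −0.42 and −0.37 with 12 arrays and −0.39 and −0.36 with 11. Gstm1, a glutathione transferase, gave −1.38, −1.07 and −1.16 at 3 MAC and 0.32, −0.01 and 0.18 at 1 MAC, a difference of −1.37 (SE 0.25, −1.29 without replicate 1). Cyp2j3, a cytochrome P450 that oxidises arachidonic acid, gave −1.85, −1.43 and −1.70 against 0.23, 0.77 and 0.91, and Mgst1, a membrane-bound transferase, gave −1.32, −1.25 and −1.61 against 0.28, 1.17 and 1.22. In Cyp2j3 control 2 stood at −1.55 and the other controls at 0.63 and 0.56. Ephx1, the microsomal epoxide hydrolase, differed by −2.05 (SE 0.43, −2.11 without replicate 1). Nqo1, a quinone reductase, gave −0.37, −0.21 and −0.31 against 1.32, 0.71 and 0.50, with isoflurane at 1.36, 2.15 and 1.50. Cat and Sod2, which remove hydrogen peroxide and superoxide, were the 2 members called higher by the halothane-only fit. In the fit over 11 arrays they differed by 0.39 (SE 0.20, 0.59 with 12 arrays) and 0.46 (SE 0.14, 1.00 with 12 arrays), without a call.

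Metallothioneins, small proteins that bind zinc and copper, were lower too. Of 11 genes of zinc handling, 5 were called lower and 0 higher. With 12 arrays the median difference was −0.17, and with 11 it was −0.48. Mt1 gave −0.86, −0.68 and −0.99 at 3 MAC, 1.82, 0.68 and 0.80 at 1 MAC and 0.41, −1.02 and 0.45 in the controls, a difference of −1.94 (SE 0.38, −1.58 without replicate 1). Mt2A gave −1.76, −1.72 and −1.81 against 1.63, 0.88 and 0.74, and Mt3, the form of the brain, −0.71, −0.93 and −0.89 against 0.62, 0.01 and −0.11. Slc39a6, a zinc importer, differed by −0.57 without replicate 1 and by −0.17 with it.

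Immediate early genes of the AP-1 and serum response group were called lower in 13 of 21 and higher in 0, with a median difference of −0.54 with 12 arrays and −0.70 with 11. Junb, a subunit of AP-1, gave −1.46, −1.99 and −1.67 at 3 MAC, 0.48, −0.30 and −0.41 at 1 MAC and −0.23, −1.27 and −0.24 in the controls, a difference of −1.63 (SE 0.30, −1.35 without replicate 1). Fosl1, another subunit, differed by −1.04 (SE 0.23, −0.91 without replicate 1). Fos gave −0.82, −0.50 and −0.91 against −0.09, 0.65 and 0.95, and Jun gave −0.28, −0.28 and −0.22 against 0.60, 0.03 and −0.15, without a call for Jun. Dusp5 and Dusp1, phosphatases that switch off MAP kinases, differed by −0.91 (SE 0.18, −0.76 without replicate 1) and −0.82 (SE 0.19, −0.63 without replicate 1). Mafk gave −0.56, −0.99 and −0.48 against 0.05 and 0.29, with replicate 1 at −0.81.

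Neuronal activity genes were called lower in 8 of 20 and higher in 2. The median difference was −0.52 with 12 arrays and −0.29 with 11. Vgf, a secreted neuropeptide precursor induced by activity, gave −0.73, −0.69 and −0.85 at 3 MAC, 0.70, 0.50 and 0.69 at 1 MAC and 0.33, −1.08 and 0.69 in the controls. Egr4, a zinc finger factor, differed by −1.34 (SE 0.44, −1.23 without replicate 1) and Gadd45b by −0.70 (SE 0.23, −0.43 without replicate 1). Bdnf, the brain-derived neurotrophic factor, gave −0.34, −0.14 and −0.41 at 3 MAC and 0.56 and 0.75 at 1 MAC, with replicate 1 at −0.67. Here the controls stood together at −0.31, −0.26 and −0.50, and 1 MAC replicates 2 and 3 were the arrays that lay apart from them. Sik1, a kinase that restrains CREB coactivators, gave 0.09, 0.16 and 0.19 against 0.04, −0.52 and −0.72. Arc, the synaptic immediate early gene, differed by −0.54 (SE 0.22) with 12 arrays and by −0.27 (SE 0.15) with 11, without a call.

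Matrix and matricellular genes were called lower in 11 of 24 and higher in 0. Over these genes the median difference was −0.52 with 12 arrays and −0.34 with 11. Lgals3, which encodes galectin-3, gave −1.50, −1.40 and −1.57 at 3 MAC, 1.20, 1.13 and 1.42 at 1 MAC, 0.99, −1.27 and 0.62 in the controls and 1.56, 2.68 and 1.70 under isoflurane. Cd44, the hyaluronan receptor, gave −1.71, −1.86 and −1.95 against 0.84, 0.87 and 1.12, with control 2 at −2.01. Fn1, fibronectin, differed by −1.86 (SE 0.43, −1.77 without replicate 1). Tnc, tenascin C, differed by −0.79 (SE 0.18, −0.65 without replicate 1), but its 4 probes disagreed in size, at −1.96, −0.10, −0.24 and −0.32. Without replicate 1 they disagreed in sign as well, at −1.98, 0.32, −0.33 and −0.28. Plat, tissue plasminogen activator, gave −0.67, −0.60 and −0.67 against −0.57, −0.08 and 0.29.

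Neuropeptide and granin genes were called lower in 11 of 22 and higher in 0. Their median difference came to −0.38 with 12 arrays and −0.39 with 11. Cck, cholecystokinin, gave −1.11, −1.23 and −1.16 at 3 MAC, 0.78, 0.26 and 0.23 at 1 MAC and 0.27, −1.42 and 0.26 in the controls. Vip gave −1.44, −1.58 and −1.60 against 0.19, 0.04 and −0.21. Scg5, a chaperone of prohormone convertase, differed by −0.79 (SE 0.20, −0.84 without replicate 1), with controls at 0.40, −0.48 and −0.27. Crh, the corticotropin-releasing hormone, gave −1.68, −1.54 and −1.86 against 0.32 and 0.45, with replicate 1 at −1.75. Markers of inhibitory neurons, which share Cck, Vip and Npy with that list, were called lower in 5 of 14 and higher in 3, and their median difference was −0.12 with 12 arrays and 0.11 with 11. Calb2, calretinin, gave −0.94, −1.14 and −1.01 against 0.17, 0.00 and −0.06.

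Tubulin, neurofilament and axon growth genes were called higher in 6 of 30 and lower in 1. With 12 arrays the median difference was 0.22, and with 11 it was 0.25. Dcx, doublecortin, of young neurons, gave 0.65, 0.48 and 0.55 at 3 MAC, −0.59, −0.60 and −0.52 at 1 MAC and −0.24, 0.46 and −1.16 in the controls. Nefm, a neurofilament, gave 0.10, 0.12 and −0.04 against −1.51, −0.56 and −0.78, and Prph, peripherin, 0.62, 0.36 and 0.48 against −0.02, −0.45 and −0.34. Tubb6, a beta tubulin, was the gene called lower, at −1.36, −1.23 and −1.30 against −0.09, 0.75 and 0.98. Of 13 pan-neuronal markers, 2 were called higher and 1 lower, and of 8 excitatory markers 2 higher and 1 lower. The median difference of the pan-neuronal markers was 0.22 with 12 arrays and 0.07 with 11. For the excitatory markers it was −0.25 and −0.02. Slc17a6, the vesicular glutamate transporter VGLUT2, gave 0.28, 0.50 and 0.27 against −0.50, −0.78 and −0.65, a difference of 0.99 (SE 0.21, 1.06 without replicate 1).

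**Figure D3:**
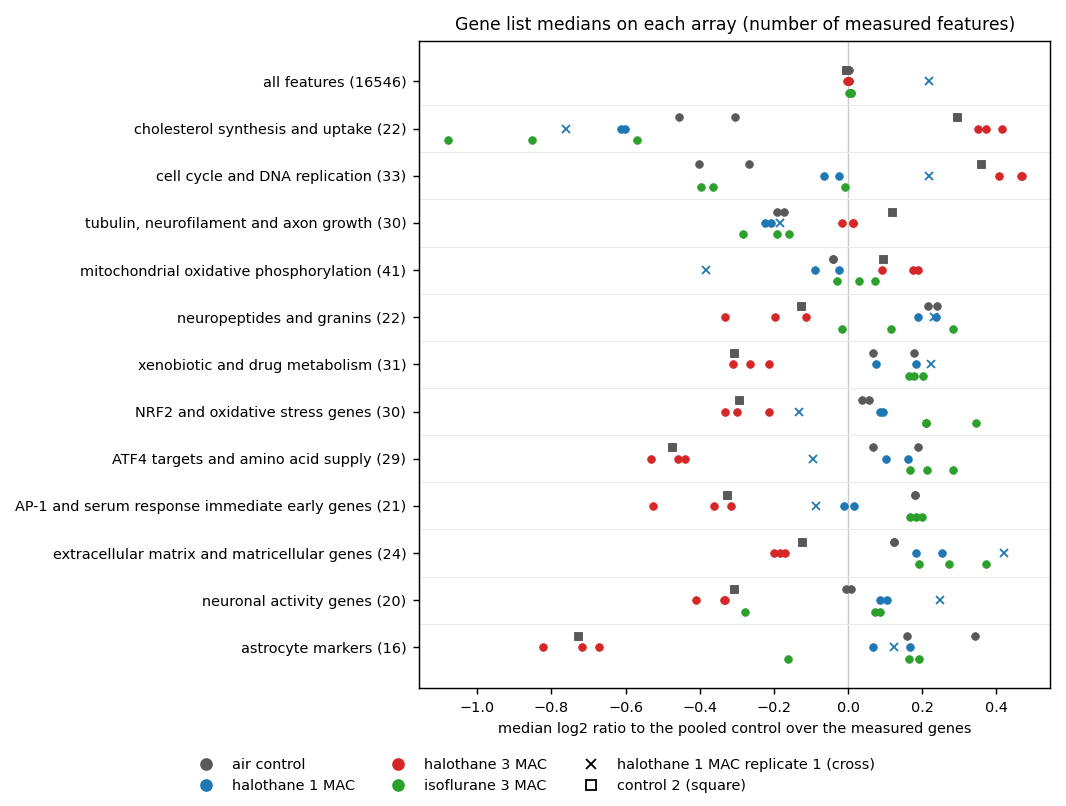
Median log2 ratio to the pooled control (horizontal axis) over the measured genes of 12 lists and over all features, 1 point for each array, with 1 MAC replicate 1 as a cross and control 2 as a square. The 12 are a selection from the 41 lists examined. For each of the 12 lists, control 2 lies closer to the 3 MAC points than controls 1 and 3 do. This does not hold for every list not shown. For p53 targets and for genes of glycolysis and hypoxia, control 1 lies closer to the 3 MAC values than control 2 does.

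Genes for the membrane targets of anaesthetics were called in small numbers, to be read beside 6.23% of all features called higher and 8.41% lower. The shares called lower were above that background for GABA-A and glycine receptor genes and for potassium channel genes. The halothane-only fit called 0 of 15 GABA-A and glycine receptor genes higher and 2 lower, 0 of 14 NMDA, AMPA and kainate receptor genes higher and 1 lower, 2 of 27 potassium channel genes higher and 5 lower, and 1 of 21 sodium, calcium and HCN channel genes in each direction. The median difference of the GABA-A and glycine receptor genes was −0.02 with 12 arrays and −0.07 with 11. For the glutamate receptor genes it was −0.11 and 0.07. For the potassium channel genes it was −0.21 and −0.08. For the other channel genes it was 0.02 and 0.04. Gabrb2, a GABA-A beta subunit, gave −0.30, −0.09 and −0.18 at 3 MAC and 0.26 and 0.46 at 1 MAC, with replicate 1 at −0.48. Gphn, the scaffold gephyrin, differed by 0.48 (SE 0.16, 0.38 without replicate 1) and Gabrr2 by −0.50 (SE 0.20, −0.31 without replicate 1), with no call in any of the 3 fits. Grin2c, an NMDA receptor subunit, gave −0.24, −0.51 and −0.36 against 0.21 and 0.09.

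Potassium channel genes held the larger gaps. Kcnip2, an accessory protein of A-type channels, gave −0.92, −0.98 and −0.92 at 3 MAC, 0.02, −0.20 and −0.12 at 1 MAC, −0.12, −0.48 and −0.08 in the controls and −0.33, −0.78 and −0.36 under isoflurane, below every other array. Kcnd2, the A-type channel subunit itself, went the other way, with 0.62, 0.47 and 0.67 against −0.69, −0.19 and −0.02. Kcnk12, of the background potassium channel family, gave −0.16, −0.51 and −0.18 against 0.98, 0.52 and 0.48, with controls at −0.01, −0.49 and 0.16. Kcnj16, an inward rectifier, spread from −2.38 to −0.52 at 3 MAC. Cacnb2, a calcium channel beta subunit, differed by −0.54 (SE 0.14, −0.46 without replicate 1) and Scn1a, a sodium channel, by 0.82 (SE 0.23, 0.56 without replicate 1).

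At the synapse, 2 of 33 genes of SNAREs and vesicle release were called higher and 4 lower, beside 6.23% and 8.41% of all features. The median difference was −0.09 with 12 arrays and −0.01 with 11. Amph, amphiphysin, gave 0.07, −0.14 and −0.19 at 3 MAC and −0.65, −0.88 and −0.67 at 1 MAC, with all controls between, at −0.49, −0.62 and −0.40. Stx4, a syntaxin of the plasma membrane, differed by −0.94 (SE 0.25) and Snap23 by −1.18 (SE 0.31) with 12 arrays and −0.78 (SE 0.21) with 11. Cplx1, complexin, gave −0.03, −0.10 and 0.01 against −0.72, −0.72 and −0.64. Of 21 genes of calcium stores and binding, 1 was called higher and 4 lower. Over these genes the median difference was −0.21 with 12 arrays and −0.07 with 11. Slc8a1, the sodium-calcium exchanger, gave 0.39, 0.41 and 0.33 against −0.35, −0.19 and −0.14, with controls between at −0.12, 0.08 and −0.07, a difference of 0.60 (SE 0.13, 0.54 without replicate 1).

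Among 29 neurotrophic factors and receptors, 3 were called higher and 5 lower, Ret among them. Their median difference came to −0.21 with 12 arrays and −0.09 with 11. Nrg1, neuregulin 1, gave −0.08, −0.09 and −0.01 at 3 MAC and 1.04, 0.51 and 0.34 at 1 MAC, with isoflurane at 1.15, 1.20 and 1.12. Of 13 clock genes, 3 were called lower and 0 higher. With 12 arrays the median difference was −0.27, and with 11 it was −0.18. Beside Per2, Bmal1 gave −0.57, −0.37 and −0.50 against 0.66, −0.03 and 0.18 and Dbp, a clock output gene, −0.43, −0.40 and −0.48 against 0.73, 0.32 and 0.06.

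Interferon and inflammatory genes were mostly lower at 3 MAC where they were called. Of 17 interferon response genes, 6 were called lower and 1 higher, and of 28 cytokine and inflammatory genes 10 were called lower and 2 higher. The median difference of the interferon list was −0.51 with 12 arrays and −0.23 with 11, and that of the inflammatory list −0.35 and −0.03, so replicate 1 set much of either shift. Oas1a, which senses double-stranded RNA, gave −0.83, −0.74 and −0.65 at 3 MAC, 1.04, 0.51 and 0.47 at 1 MAC and 0.28, −0.56 and −0.08 in the controls, beyond every control on both sides. B2m, the light chain of class I molecules, differed by −1.65 (SE 0.37, −1.70 without replicate 1). Ccl7, a chemokine for monocytes, gave −0.17, −0.22 and −0.42 against 1.29, 0.38 and 0.29. Ccl20, another chemokine, gave 0.96, 1.22 and 1.29 against 1.58, −1.36 and −1.27, and control 2 stood at 2.28.

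Differences between control arrays ran along the dose difference. Across 15919 features the difference between doses without 1 MAC replicate 1 correlated with control 2 minus control 1 at r = 0.663 and with control 2 minus control 3 at 0.591, but with control 1 minus control 3 at 0.007. With 12 arrays these values were 0.613, 0.550 and 0.012. No array enters both sides of these correlations, though all share the pool. If the plates of a dose came from a single rat, rat and dose cannot be told apart here, which was not tested. Among features called by the halothane-only fit, 87.1% had control 2 nearer to the 3 MAC mean than to the 1 MAC mean, while this held for 18.3% with control 1 and 25% with control 3. Of all features, these shares were 63.7%, 39.3% and 44.8%.

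**Figure D4:**
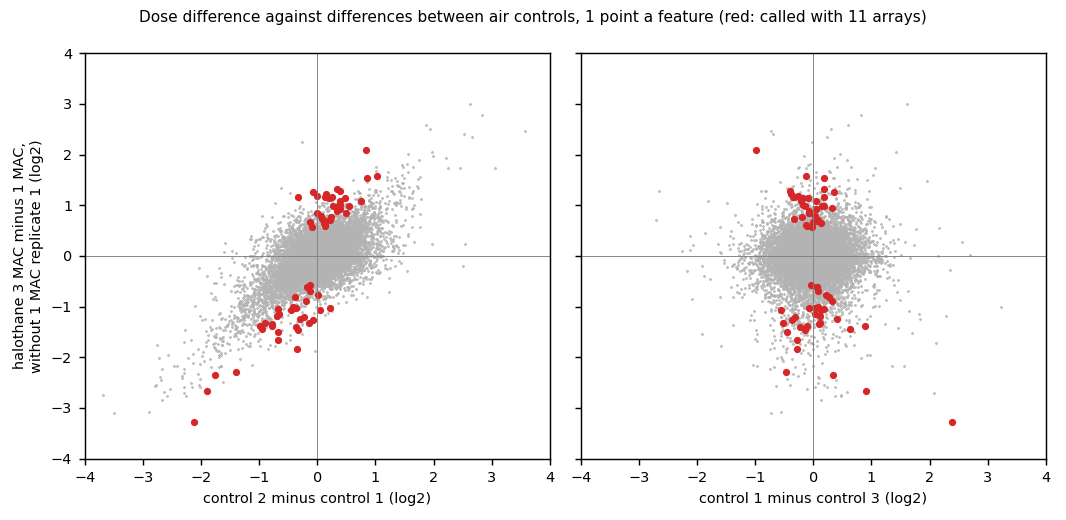
Difference of 3 MAC minus 1 MAC without 1 MAC replicate 1 (vertical axis, log2) against control 2 minus control 1 (left) and control 1 minus control 3 (right), 1 point for each feature, with the 69 features called with 11 arrays in red. The cloud is tilted on the left, with r = 0.663, and not on the right, with r = 0.007.

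The 69 features called with 11 arrays were also set beside the controls. In each of the 69 the difference between doses was larger than the whole range of the 3 controls, as it was in 1134 of 2391 features called by the halothane-only fit (47.4%) and in 3709 of all 16085 with values on the controls (23.1%). This comparison and the positions given next are descriptions, since the 69 were chosen for a large difference against a spread that holds the controls. In 51 of the 69 (73.9%) the 3 MAC arrays lay outside all controls on one side and 1 MAC replicates 2 and 3 outside them on the other, against 1.93% of all features. In 0 of the 69 and in 65.3% of all features, neither dose had all its arrays beyond all controls on the same side. Replicate 1 of 1 MAC was left out of this count.

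The mean of 1 MAC replicates 2 and 3 and the mean of 3 MAC stood on opposite sides of the control mean in 47.1% of all features. Both stood on one side with 3 MAC farther out in 27.1% and with 1 MAC farther out in 25.8%. In the 69 features the doses stood on opposite sides in 67 (97.1%), and in the halothane-only calls in 86.9%. These shares are descriptions with no bearing on dose order, since the features were chosen for a large difference between doses and the control mean averages control 2, near 3 MAC, with controls 1 and 3, which lay nearer 1 MAC in most of the halothane-only calls. In Ctsh, Ddit4 and Hopx every single control lay between the doses.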

How the data were processed

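Each of the 12 arrays was hybridised with a labelled sample and a pooled control, and the authors deposited 1 log10 ratio for each of 21575 spots. Partek is named as a tool in the submitters' processing notes, and the normalization is not given in the sources used here. The base was taken as 10 and the direction as sample over pool, both likely and not stated. Ratios were multiplied by 3.32 to give log2. Exact zeros (15439 values) were treated as missing, and 471 unnamed spots at the limit of 2 on at least 10 arrays were left out. Probes were named by the platform annotation: 12750 spots had 1 gene symbol, 5 had several and 8820 had none. Probes of a gene measured on all arrays were averaged. With at least 2 values in each group, 9210 genes and 7336 unnamed probes were tested.

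Group means were fitted with limma 3.58.1 in R 4.3.3 (lmFit, contrast, eBayes, two-sided, Benjamini-Hochberg at 0.05), over 12 arrays and again without halothane 1 MAC replicate 1. Python 3.11.15 with pandas 2.3.3 summarised lists. The steps were tested on simulated data. Precision is limited by how many arrays there are.

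The genes named first were those with no overlap between doses, the largest past the threshold or, where none passed, the 8 of smallest p in each direction. From each list the members of smallest p in either fit were taken, and enzymes of the sterol pathway in order. Other members were chosen after their values were seen. The comparison and the 41 lists (1114 symbols, 811 tested) were chosen with earlier results of these data known. Alternatives covered scaling, filters, array weights, variance moderation, the replicate block, single probes and each array left out.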

Additional observations from a re-analysis of the deposited data

How the results depend on the processing

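Counts are features higher and lower at 3 MAC at a limma adjusted p of 0.05. With 12 arrays they were 0 and 0, and these stayed at 0 with median centring, zeros kept, limit spots kept, values on all 12 arrays or single probes. They became 68 and 229 with the 6 halothane arrays only, 1030 and 1391 with 5 of them, 84 and 66 with quantile normalisation, 5 and 2 with 1 median absolute deviation for all arrays, 2 and 2 without moderated variances, and 2416 and 2626 with array weights. Leaving out 1 array gave 0 to 237 higher and 0 to 461 lower, with the most without control 2, then 35 and 34 without 1 MAC replicate 1 and 1 and 14 without control 1. Without 1 MAC replicate 1 the counts of 35 and 34 became 1030 and 1391 with the halothane arrays only, 221 and 274 with quantile normalisation, 120 and 146 with equal median absolute deviations, 13 and 14 with zeros kept, 113 and 151 with values on all 12 arrays, 15 and 17 with limit spots kept, 0 and 0 without moderated variances, and 2020 and 2138 with array weights. Leaving out a further array gave 0 to 677 higher and 0 to 960 lower. The most came without control 2, 216 and 331 without control 1 and 224 and 358 without control 3, but 0 and 0 without any other halothane array or isoflurane replicate 3, and 0 and 1 without isoflurane replicate 1. No gene of the 16 in each fit that stood first changed the sign of its difference, and the causes were not tested. Medians near 0 did change sign, with 12 arrays for fatty acid synthesis in 9 of 23 settings (−0.06 to 0.09), progenitor markers in 7, inhibitory markers and NMDA, AMPA and kainate receptors in 5 each and ribosomal proteins in 3, and with 11 arrays for Notch and Wnt genes in 6 of 21. With the replicate block the counts were 0 and 0 in both fits. In their deviations from the group means, same-numbered 1 and 3 MAC arrays correlated at 0.088, −0.037 and 0.039. The 1 MAC mean includes replicate 1, so these values cannot decide whether the numbers pair the plates.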

Other observations

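The halothane-only fit called 6.23% of all features higher at 3 MAC and 8.41% lower, and the counts in this section are read beside these shares. Genes of mitochondrial oxidative phosphorylation were called higher in 3 of 41, near the share of all features, and lower in 0. Their median difference was 0.39 with 12 arrays and 0.17 without 1 MAC replicate 1. Ndufb5, a subunit of complex I, gave 0.32, 0.26 and 0.21 at 3 MAC and −0.71, −0.12 and −0.40 at 1 MAC. Cycs, cytochrome c, gave 0.30, −0.13 and 0.25 against −1.17, −0.56 and −0.70. Of 47 cytosolic ribosomal protein genes, 0 were called in either direction, and the median difference was 0.11 with 12 arrays and −0.02 with 11.

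Among 28 genes of glycolysis and hypoxia, 1 was called higher and 6 lower. The median difference was −0.03 with 12 arrays and −0.07 with 11. Pgk1, a glycolytic kinase, gave 0.42, 0.34 and 0.33 at 3 MAC and −0.66, −0.16 and −0.24 at 1 MAC, while Adm, adrenomedullin, differed by −1.64 (SE 0.37, −1.34 without replicate 1). Of 17 genes of the unfolded protein response, 1 was called higher and 6 lower. Over these genes the median difference was −0.06 with 12 arrays and −0.07 with 11. Creld2, an endoplasmic reticulum stress gene, passed the fit over 11 arrays with a difference of −1.06 (SE 0.17, limma adjusted p = 0.0444; −0.19 with 12 arrays). It gave −0.42, −0.68 and −0.45 at 3 MAC and 0.47 and 0.61 at 1 MAC, with replicate 1 at −2.06 and isoflurane at 1.39, 1.19 and 1.36. Heat shock genes were called lower in 4 of 22 and higher in 0, among them Bag3, a chaperone partner, at −1.70, −1.60 and −1.89 against 0.23, 0.78 and 0.68, with control 2 at −1.98. Targets of p53 were called lower in 5 of 23 and higher in 0. The median difference of the heat shock genes was 0.16 with 12 arrays and 0.02 with 11. For the targets of p53 it was −0.22 and −0.10.

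In the TGF-beta and BMP list 2 of 26 were called higher, near the 6.23% of all features, and 0 lower. Their median difference came to 0.02 with 12 arrays and 0.09 with 11. Bmp4, a secreted patterning factor, gave 1.34, 1.29 and 1.61 at 3 MAC and 0.86, −0.78 and −1.41 at 1 MAC, with controls at −0.72, 1.22 and −1.03. Bmp6 gave −0.65, −1.63 and −0.70 against 0.36, 0.21 and 0.03. Notch and Wnt genes were called higher in 5 of 19 and lower in 1. With 12 arrays the median difference was −0.11, and with 11 it was −0.03. Hes6, of differentiating neurons, gave 0.26, −0.04 and −0.18 against −1.18, −0.78 and −0.82.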
